A study of Mus musculus with 24 samples.

Results

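The 48 genes described here are the transcription factor gene Nfe2l2 (Nrf2), its inhibitor Keap1, and enzymes of glutathione synthesis, conjugation, quinone and carbonyl reduction, thiol reduction, NADPH supply and peroxide removal. They were listed by name as Nrf2 targets and antioxidant enzymes, with earlier results of these data known. Of the 18194 genes named by a single symbol on the arrays, 42 members are among them. Of the 48 members, 38 passed the filter on low signal and were tested, all on the 430A array. The cystine transporter gene Slc7a11, the heme oxygenase gene Hmox1 and the transferase genes Gsta3 and Gstm6 fell below the filter. Prdx1 is measured only by 5 probe sets that the annotation shares with another gene, and no probe set is named for Ggt1, Akr1b3, Prdx5, Prdx6 and G6pdx. The members differ in how directly Nrf2 is known to control them. Counts below are over the 38 tested members.

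Nrf2 is a transcription factor that Keap1 holds in the cytoplasm and hands to the ubiquitin system until electrophiles or oxidants modify Keap1. It then enters the nucleus, pairs with small Maf proteins and binds the antioxidant response element of genes for glutathione synthesis, quinone reduction, conjugation and NADPH supply. In the intestine these enzymes handle dietary electrophiles and the oxidants that leukocytes release during inflammation. Curcumin, the yellow polyphenol of turmeric, is an electrophile known to activate Nrf2 in cultured cells.

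The tissue was the whole colon of inbred BALB/c mice aged 6 to 8 weeks. The 4 groups were curcumin diet with TNBS enema, curcumin diet with control enema, standard diet with TNBS enema, and standard diet with control enema. TNBS (trinitrobenzene sulfonic acid) is a hapten that causes colitis when given into the colon, and the curcumin diet held 2% curcumin. Diets began 2 days before the enema on day 0, the mice were killed on day 7, and each group has 3 samples measured on Affymetrix MOE430 arrays. The RNA of 3 mice was pooled. Nothing in the labels tells whether a group's 3 samples come from different pools, so the p-values measure only the spread between these samples, which may be technical. In whole colon, fewer cells of a type and less RNA per cell cannot be told apart, which holds for every value below. Signals are linear intensities, and log2 differences are ± their standard error on the log2(signal + 16) scale.

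The antioxidant response element is the DNA sequence through which Nrf2 acts, so promoter windows are shown for the regulator and for members of different roles: Nfe2l2 itself, Gclm of glutathione synthesis, Me1 of NADPH supply and Cat, the catalase gene, which passed the test between the diets under TNBS in one of the fits. Each window runs from 250 bases before to 50 after a RefSeq transcript start on build GRCm38.p6, in the direction of transcription. The windows are chr2:75704614-75704913 on the minus strand for Nfe2l2, chr3:122245307-122245606 on the plus strand for Gclm, chr9:86695865-86696164 on the minus strand for Me1 and chr2:103485104-103485403 on the minus strand for Cat. Capitals mark the core TGACNNNGC on either strand.
Nfe2l2: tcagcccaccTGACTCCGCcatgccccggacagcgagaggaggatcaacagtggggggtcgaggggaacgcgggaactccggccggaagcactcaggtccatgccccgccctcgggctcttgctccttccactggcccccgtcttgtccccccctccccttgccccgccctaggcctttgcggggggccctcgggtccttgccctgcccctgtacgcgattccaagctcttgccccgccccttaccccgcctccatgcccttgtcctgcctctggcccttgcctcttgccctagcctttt
Gclm: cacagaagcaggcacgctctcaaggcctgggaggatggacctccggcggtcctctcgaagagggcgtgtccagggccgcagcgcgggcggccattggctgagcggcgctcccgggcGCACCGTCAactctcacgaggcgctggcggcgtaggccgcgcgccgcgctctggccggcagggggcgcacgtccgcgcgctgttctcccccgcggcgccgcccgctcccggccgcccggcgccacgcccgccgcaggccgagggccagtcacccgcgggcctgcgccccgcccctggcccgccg
Me1: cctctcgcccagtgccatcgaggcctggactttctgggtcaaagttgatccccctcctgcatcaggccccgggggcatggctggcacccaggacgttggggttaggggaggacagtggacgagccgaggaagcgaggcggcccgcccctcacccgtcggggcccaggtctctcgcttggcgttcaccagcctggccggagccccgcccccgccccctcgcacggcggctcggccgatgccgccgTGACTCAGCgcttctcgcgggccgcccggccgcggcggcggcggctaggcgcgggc
Cat: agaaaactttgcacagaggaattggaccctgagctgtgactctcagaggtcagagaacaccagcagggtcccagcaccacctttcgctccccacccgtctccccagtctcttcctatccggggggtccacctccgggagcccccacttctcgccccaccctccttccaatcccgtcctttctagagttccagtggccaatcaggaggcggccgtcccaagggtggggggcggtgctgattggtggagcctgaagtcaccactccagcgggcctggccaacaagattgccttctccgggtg
The core begins at position -240 in Nfe2l2, -134 in Gclm (on the other strand, as GCACCGTCA) and -6 in Me1, and it is not in the Cat window. A second Me1 window has no match. The windows of Nqo1, Akr1b8, Akr1c13, Cbr1, Gstm1, Tkt, Gpx2 and Gpx3, not shown, have no match either. Of the 42 members found in the RefSeq promoter table, 13 (31.0%) hold the core in at least 1 window, against 14% of the 27025 genes in the table and 12.4% of its 32851 windows. A match is a description of the letters, not a binding site, and Nrf2 binding was not measured here.

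The 24 arrays, 12 of each type, had been scaled to a like 2% trimmed mean, and precision is limited by their number. The first principal component of the 430A arrays, with 32.0% of the variance, did not follow diet or enema. It split them 6 and 6 into array set 1 (median signal 226.8 to 254.2) and array set 2 (271.4 to 284). Both sets hold arrays of all 4 groups, and the labels name no batch. The split is uneven. Array set 1 holds standard-diet control replicate 1, standard-diet TNBS replicates 2 and 3, curcumin-diet control replicates 2 and 3, and curcumin-diet TNBS replicate 1. Set is thus partly confounded with each comparison of 2 groups and with the interaction, but not with the averages over enemas or diets. Within a set, a comparison of 2 groups has a single array on 1 side. The set was itself read from these signals. The main limma fit ignores the set. A second fit that adds it to the model, the set-term fit, is given where it moves a call or lies near the threshold. The 2 arrays that stand apart on 430B, curcumin-diet TNBS replicates 2 and 3, enter no gene's main value below, since those come from 430A. They do enter the 430B probe set values, which are therefore also given without them, with 1 curcumin-diet TNBS array left. Markers of inflammatory cells were highest in the standard-diet TNBS samples. The summed signal of the 6 macrophage markers was 6831 to 8190 in curcumin-diet TNBS samples, against 9337 to 10916 in standard-diet TNBS samples. It was 6739 to 7699 in curcumin-diet control samples, against 6276 to 7572 in standard-diet control samples. That of the 4 neutrophil markers past the filter was 552 to 917 and 1405 to 2300 in the curcumin-diet and standard-diet TNBS samples, and 703 to 965 and 734 to 841 in the control samples of these diets. The neutrophil genes S100a8, S100a9 and Cxcr2 did not pass the filter, and 0 of 4 neutrophil and 0 of 6 macrophage markers passed the test between groups. Adipocyte markers (3 genes) summed to 5392 to 8324 and 2807 to 6828 in the curcumin-diet and standard-diet TNBS samples, and to 4887 to 7613 and 7443 to 8020 in the control samples of these diets. Epithelial markers (9 of 10 measured) summed to 48297 to 53727 and 47839 to 49712 in the TNBS samples. The epithelial sum was between 47641 and 65040 in every sample, so the labelled tissue's defining markers are present, and no listed erythroid marker passed the filter. Pancreatic acinar markers (6 genes) ran from 908 to 84630 within and across groups. They summed to 1102 to 62807 and 30980 to 81761 in the curcumin-diet and standard-diet TNBS samples. In the control samples of these diets they summed to 908 to 38263 and 1016 to 84630. Their median log2 difference was -2.75 between the diets under TNBS and -2.42 under the control enema. It was 1.83 for TNBS on the standard diet. The part of pancreatic RNA in the members' differences was not tested.

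**Figure D1:**
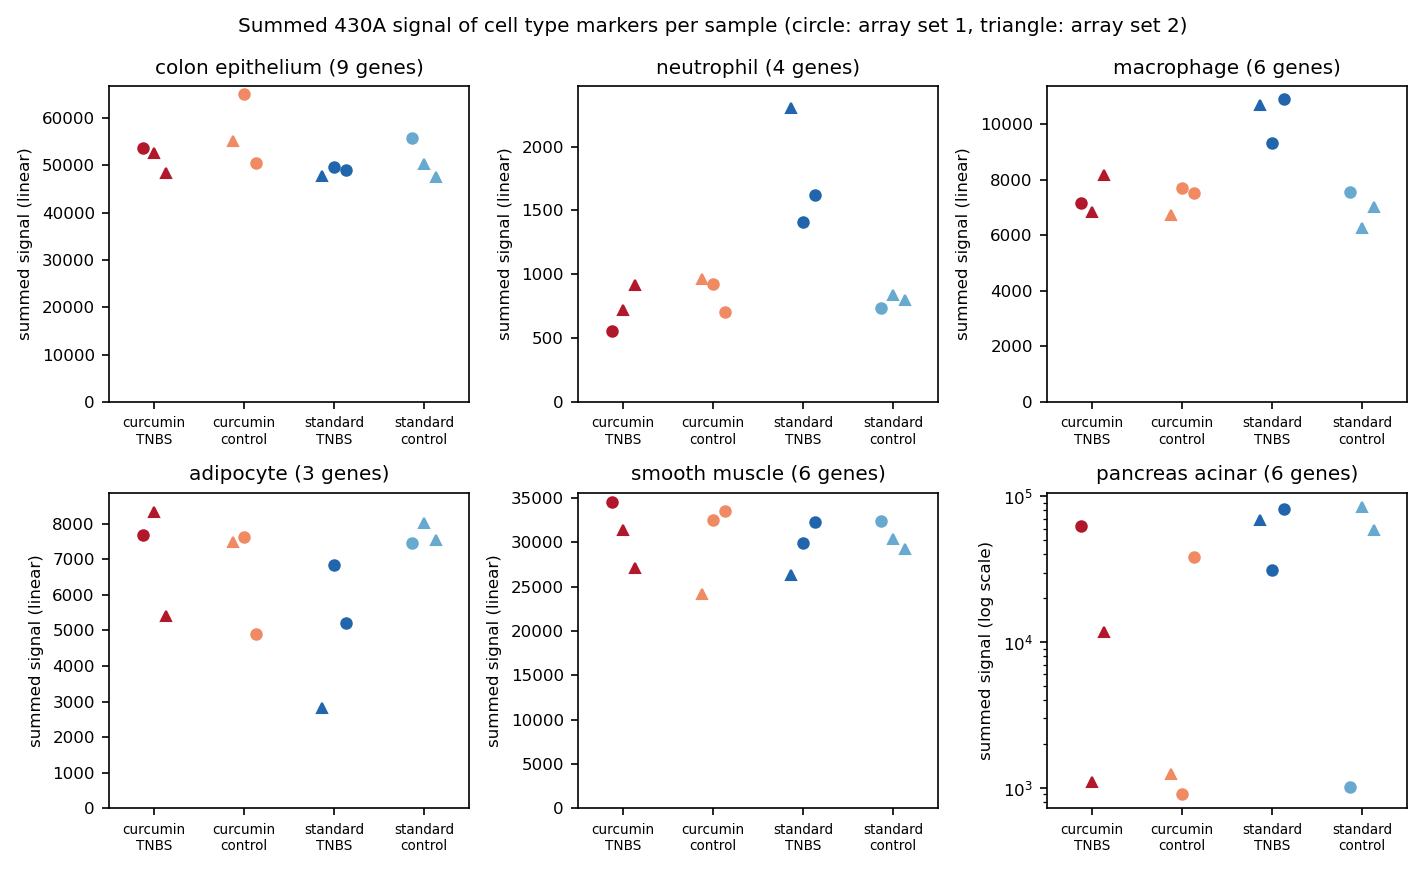
Summed 430A signal of the marker genes of 6 cell types in each sample, with linear vertical axes except for the pancreas panel, which is logarithmic. Circles are array set 1 and triangles array set 2. The 3 standard-diet TNBS samples lie above the other samples for neutrophil and macrophage markers, and the pancreas sum varies within groups.

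Between the diets under TNBS, the comparison that asks what curcumin does to the inflamed colon, 1 member rose in the set-term fit: Cat, the gene of catalase, which breaks down hydrogen peroxide. In the main fit 0 of 38 members passed at an adjusted p under 0.05, while 0.0359% of the 8348 genes tested on 430A did. In the set-term fit 1 of 38 members passed, while 0.24% of all genes did. At an unadjusted p under 0.05 in the main limma fit, 10 members were higher and 2 lower on curcumin, and 10.4% of all genes were at that level in either direction. Groups did not overlap for 10 members higher and 2 lower, against 8.33% and 8.28% of all genes. The median log2 difference of the 38 members was 0.23, against 0.00 for all genes, and 26 of 38 were above 0. It was 0.31 within array set 1 and 0.22 within array set 2. Without standard-diet TNBS replicate 1 the median was 0.10.

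Under the control enema, where the question is what curcumin does without colitis, 0 of 38 members passed in the main fit and 0 in the set-term fit, and the share of all genes was 0% in both. Unadjusted p was under 0.05 in limma for 2 members, both higher, and for 3.04% of all genes. Groups did not overlap for 5 members higher and 1 lower, against 3.05% and 3.55% of all genes. The median was 0.18, against 0.00 for all genes, with 34 of 38 above 0. It was 0.09 within array set 1 and 0.14 within array set 2, with 25 and 28 members above 0. The 9 epithelial markers had a median of 0.19 in the same comparison. In the set-term fit the epithelial markers and the members both had 0.12. The summed epithelial signal was 50590 to 65040 on curcumin and 47641 to 55732 on the standard diet. The part of epithelial cells in the members' difference was not tested. Averaged over the enemas, 35 of 38 members were above 0 on curcumin (median 0.15, and 31 to 35 members with 1 sample left out). In that average 0 members passed in either fit (0% of all genes), and 11 had an unadjusted p under 0.05, each of them higher (3.97% of all genes, in either direction). Over the 6 samples of each diet the groups were apart for 0 members in either direction (0.0839% of all genes each way).

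Between the enemas on the standard diet, 0 of 38 members passed in the main fit (0.012% of all genes) and 0 in the set-term fit (0.455%). Unadjusted p was under 0.05 for 2 members higher and 5 lower in TNBS samples (9.63% of all genes). Groups did not overlap for 3 members higher and 6 lower (7.25% and 7.41% of all genes), and the median was -0.08. On the curcumin diet 0 members passed in either fit (0% of all genes), with 1 higher and 1 lower at unadjusted p under 0.05 (2.77% of all genes) and a median of -0.07, or 0.00 in the set-term fit. The groups were apart for 0 members higher and 1 lower (3.41% and 3.86% of all genes). Averaged over the diets 0 members passed in either fit (0% of all genes), and 1 had an unadjusted p under 0.05 (3.14% of all genes). Over the 6 samples of each enema the groups were apart for 0 members (0.024% of all genes higher and 0.012% lower). For the diet by enema interaction, which asks whether the enema difference itself depends on diet, 0 members passed in either fit (0% of all genes), with 8 at an unadjusted p under 0.05 (9.89% of all genes). The comparisons share samples: both TNBS differences and both diet differences draw on the same 4 groups, so that a high or low group enters several of them.

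**Figure D2:**
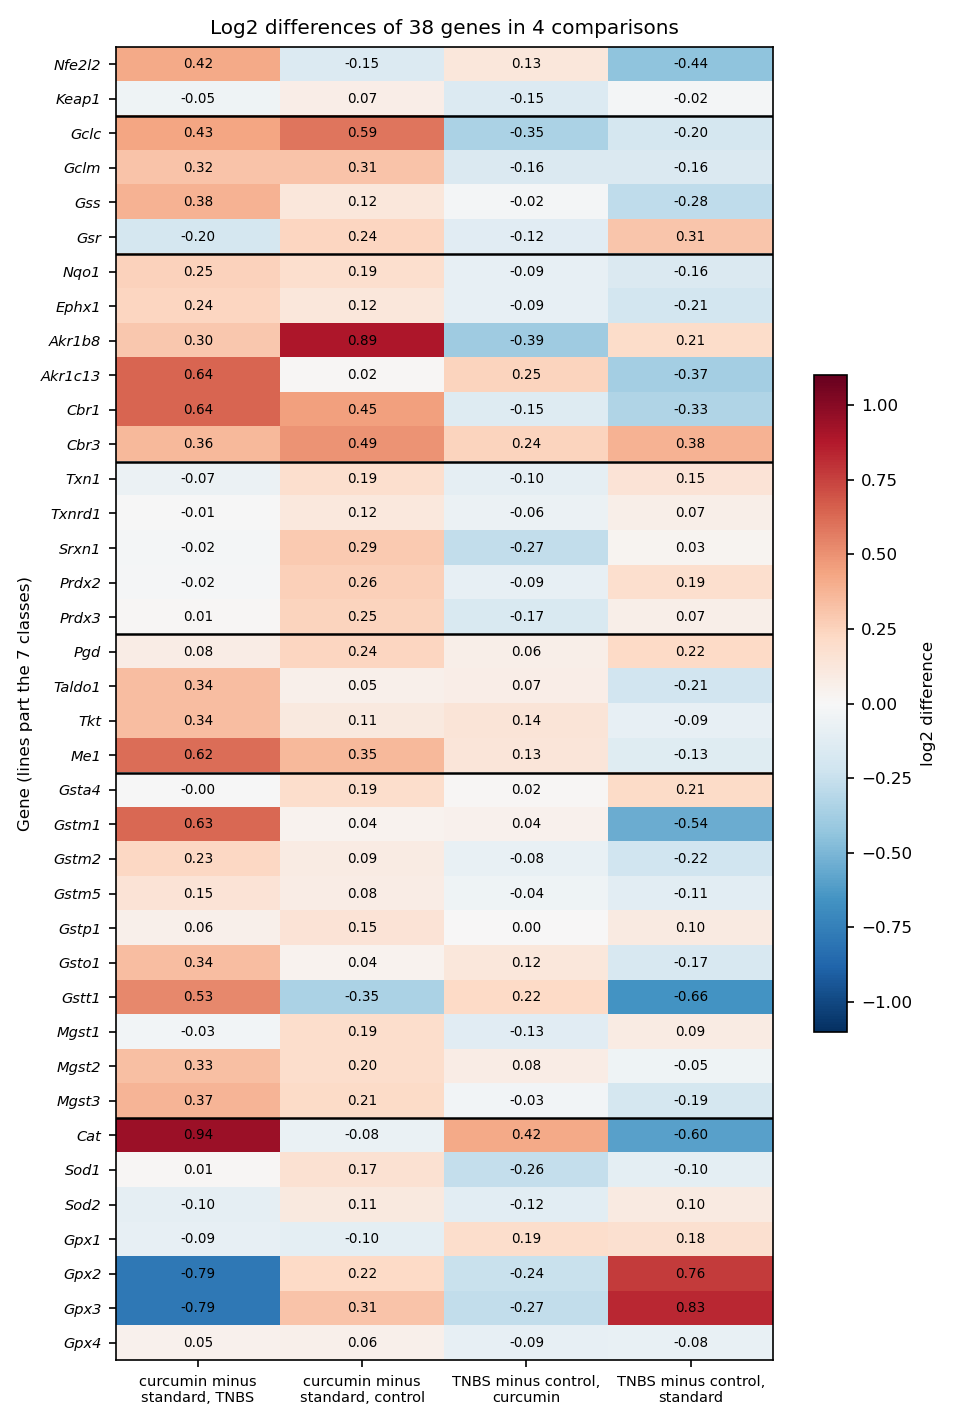
Log2 differences of the 38 tested members in 4 comparisons, with the direction under each column, from the main limma fit without the array set, ordered by role with lines between the 7 classes. Red is positive and blue negative, on a scale from -1.1 to 1.1. The glutathione synthesis and carbonyl rows are mostly red in both diet columns, and the Cat, Gpx2 and Gpx3 rows change sign between the first and the last column.

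Of the 2 regulators, Nfe2l2 was low in a single group. Its signals were 2782.6, 2722.1 and 2451.0 in curcumin-diet TNBS samples, against 1906.1, 2121.8 and 1904.6 in standard-diet TNBS samples. They were 2708.5, 1940.1 and 2709.7 in curcumin-diet control samples, against 2632.1, 2578.3 and 2867.5 in standard-diet control samples. The 3 standard-diet TNBS samples lie below each sample of the groups they are compared with, and curcumin-diet control replicate 2 is as low. The log2 difference was 0.42 ± 0.14 between the diets under TNBS (adjusted p = 0.294) and -0.44 ± 0.14 for TNBS on the standard diet (adjusted p = 0.281), so neither passed. A second Nfe2l2 probe set, on 430B, had 0.30 and -0.11, or 0.71 and -0.11 without the 2 arrays that stand apart. Keap1, the inhibitor, had 545.0, 591.8 and 589.3 in curcumin-diet TNBS samples, against 591.2, 706.4 and 506.9 in standard-diet TNBS samples. The control samples had 679.3, 647.6 and 590.8 on curcumin, against 665.0, 538.9 and 622.9 on the standard diet. The groups overlap, with log2 differences of -0.05 ± 0.14 between the diets under TNBS and 0.07 ± 0.14 under the control enema.

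Glutathione is made by glutamate cysteine ligase, with its catalytic subunit Gclc and modifier subunit Gclm, and glutathione synthetase, Gss. Gclc signals were 961.1, 811.9 and 582.9 in curcumin-diet TNBS samples, against 540.5, 739.7 and 451.4 in standard-diet TNBS samples. Under the control enema they were 829.9, 1352.2 and 848.8 on curcumin, against 806.5, 717.6 and 472.7 on the standard diet. The control groups do not overlap, though the lowest curcumin and the highest standard samples are close, and the TNBS groups overlap. The log2 difference was 0.59 ± 0.27 under the control enema (adjusted p = 0.998) and 0.43 ± 0.27 under TNBS (adjusted p = 0.640). It was 0.36 under the control enema without curcumin-diet control replicate 2, and 0.28 under TNBS without standard-diet TNBS replicate 3. Another Gclc probe set had -0.22 under the control enema and 0.58 under TNBS, so the 2 probe sets disagree in sign in the controls.

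Gclm signals were 850.1, 759.8 and 529.5 in curcumin-diet TNBS samples, against 455.8, 609.8 and 627.9 in standard-diet TNBS samples. In control-enema samples they were 770.3, 905.6 and 686.3 on curcumin, against 712.8, 586.8 and 590.3 on the standard diet. Both pairs of groups overlap, and the log2 differences were 0.32 ± 0.19 under TNBS and 0.31 ± 0.19 under the control enema (adjusted p = 0.637 and 0.998), or 0.41 and 0.22 in the set-term fit. Under TNBS the Gclm difference was 0.17 without standard-diet TNBS replicate 1 and 0.51 without curcumin-diet TNBS replicate 3, and under the control enema it was 0.21 without curcumin-diet control replicate 2. A Gclm probe set on 430B had 0.33 and 0.31, or 0.35 and 0.31 without the 2 arrays. Gss was 1185.2, 1269.0 and 1126.0 in curcumin-diet TNBS samples, against 951.2, 943.6 and 842.9 in standard-diet TNBS samples, 2 groups that do not overlap (0.38 ± 0.17, adjusted p = 0.457). The Gss controls, with 1170.1, 1412.8 and 1069.8 on curcumin, against 1427.7, 1071.7 and 895.8 on the standard diet, overlap (0.12 ± 0.17). A Gss probe set on 430B had -0.15 under TNBS, and 0.08 without the 2 arrays that stand apart. Gsr, the reductase that recycles oxidised glutathione, differed the other way under TNBS, by -0.20, and by 0.24 under the control enema. The 4 tested genes of this class had a median of 0.35 under TNBS and 0.27 under the control enema, or 0.42 and 0.18 in the set-term fit. With 1 sample left out the TNBS median ran from 0.23 to 0.47. The control-enema median was 0.09 within array set 1 and 0.32 within array set 2.

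Among the quinone, heme, epoxide and carbonyl enzymes, all 6 tested genes were above 0 in both diet comparisons, with medians of 0.33 under TNBS and 0.32 under the control enema, or 0.46 and 0.22 in the set-term fit. Akr1b8, an aldo-keto reductase of the gut and other tissues, separated the control groups. Its signals were 2456.0, 2899.5 and 2662.4 in curcumin-diet control samples, against 1638.7, 1539.2 and 1156.5 in standard-diet control samples. With TNBS they were 2218.3, 2036.9 and 1856.1 on curcumin, against 1496.1, 1916.3 and 1568.6 on the standard diet. The control groups are far apart, and the TNBS groups overlap by 1 sample of each. The log2 difference was 0.89 ± 0.15 under the control enema (adjusted p = 0.279, or adjusted p = 0.0956 in the set-term fit) and 0.30 ± 0.15 under TNBS (adjusted p = 0.543). Averaged over the enemas it was 0.59 ± 0.11 (adjusted p = 0.289, or adjusted p = 0.0644 in the set-term fit), and 0.55 and 0.62 within the 2 sets. TNBS samples on curcumin were all below control samples on curcumin (-0.39 ± 0.15, adjusted p = 1.00), the 1 member whose groups did not overlap in that comparison.

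Akr1c13, another aldo-keto reductase, had 1971.7, 2172.8 and 1883.9 in curcumin-diet TNBS samples, against 1363.4, 1392.7 and 1113.4 in standard-diet TNBS samples. With control solution it had 1949.9, 1308.6 and 1881.4 on curcumin, against 1456.4, 1767.1 and 1801.0 on the standard diet. The TNBS groups do not overlap (0.64 ± 0.16, adjusted p = 0.186, or adjusted p = 0.0994 in the set-term fit), and the control groups do (0.02 ± 0.16). For TNBS on the standard diet the difference was -0.37 ± 0.16 (adjusted p = 0.508). Akr1 genes are close paralogs, and another probe set of Akr1c13 is shared with a second gene, so these signals may hold more than 1 transcript. Nqo1, the quinone reductase that is a standard readout of Nrf2, had 626.6, 788.9 and 824.4 in curcumin-diet TNBS samples, against 604.1, 619.7 and 634.4 in standard-diet TNBS samples. After the control enema Nqo1 had 938.7, 864.4 and 606.1 on curcumin, against 755.3, 612.6 and 714.2 on the standard diet. Both pairs overlap. The difference was 0.25 under TNBS (95% interval -0.12 to 0.63) and 0.19 under the control enema (-0.18 to 0.56). Within array set 1 the Nqo1 differences were 0.00 and -0.06, and within array set 2 they were 0.41 and 0.49. The control-enema difference was 0.07 without curcumin-diet control replicate 1 and 0.37 without curcumin-diet control replicate 3.

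Hmox1, which degrades heme, was below the filter, with 76.0, 100.7 and 39.0 in curcumin-diet TNBS samples, against 48.7, 138.5 and 202.2 in standard-diet TNBS samples. Its control samples were 8.1, 130.3 and 141.0 on curcumin, against 57.3, 20.7 and 44.1 on the standard diet. The spread within groups exceeds the difference between them, and in a fit without the filter the diet difference was -0.63 ± 0.68 under TNBS and 0.59 ± 0.68 under the control enema. Cbr1, a carbonyl reductase chosen for mention after its values were seen, had 2012.9, 1498.6 and 1368.2 in curcumin-diet TNBS samples, against 565.1, 1637.6 and 1158.2 in standard-diet TNBS samples. The groups overlap, and standard-diet TNBS replicate 1 is far below the others. Its difference was 0.64 ± 0.33 (adjusted p = 0.562), or 0.88 ± 0.19 in the set-term fit (adjusted p = 0.0647), and 0.22 to 0.97 with 1 sample left out.

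**Figure D3:**
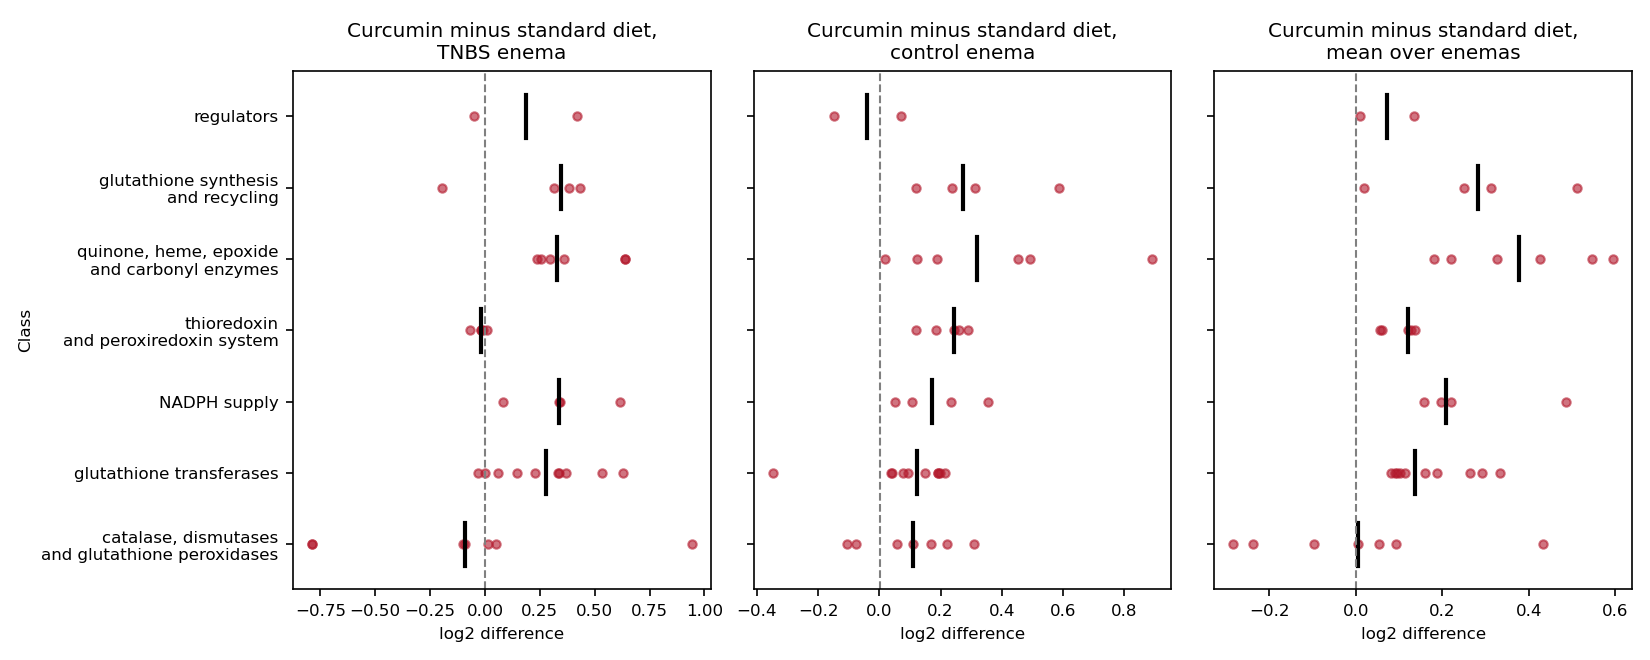
Log2 differences between curcumin and standard diet of the tested members by class, under TNBS, under the control enema and averaged over both, from the main limma fit. Points are genes and bars are class medians. The quinone, heme, epoxide and carbonyl points lie above 0 in all panels, and the peroxidase and catalase class spans both signs under TNBS, from -0.79 to 0.94.

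The thioredoxin and peroxiredoxin system, which reduces protein disulfides and peroxides, had small diet differences under TNBS. Its 5 tested genes had a median of -0.02 under TNBS and 0.25 under the control enema, where all 5 were above 0, and 0 of 5 had an unadjusted p under 0.05 in limma in either. In the set-term fit the medians were 0.06, with 4 of 5 above 0, and 0.15, so the sign under TNBS depended on the fit. Txn1, thioredoxin, had 11186.7, 10426.0 and 9515.7 in curcumin-diet TNBS samples, against 10267.0, 11325.6 and 10979.3 in standard-diet TNBS samples. In the controls it had 10837.2, 12791.8 and 9918.0 on curcumin, against 10286.1, 9427.3 and 9624.9 on the standard diet. Both pairs overlap. Its difference was -0.07 (95% interval -0.30 to 0.17) under TNBS and 0.19 (-0.05 to 0.42) under the control enema. Txnrd1, the reductase that recharges thioredoxin, had 2023.1, 1728.3 and 1799.7 in curcumin-diet TNBS samples, against 1832.0, 1853.6 and 1884.1 in standard-diet TNBS samples, which overlap (-0.01 ± 0.11). Its controls, 1847.2, 1889.1 and 2056.6 on curcumin, against 1994.4, 1754.5 and 1594.8 on the standard diet, overlap as well (0.12 ± 0.11). Prdx2, a cytosolic peroxiredoxin, had 2245.1, 1887.2 and 1894.8 in curcumin-diet TNBS samples, against 1762.0, 2293.9 and 2055.3 in standard-diet TNBS samples. Its control samples had 1788.8, 2240.4 and 2415.5 on curcumin, against 1739.5, 1750.2 and 1848.4 on the standard diet. Both pairs overlap, with differences of -0.02 ± 0.14 and 0.26 ± 0.14 (adjusted p = 0.985 and 0.998).

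NADPH supplies the electrons for glutathione and thioredoxin reductases. The class listed under its supply has 4 tested genes, Pgd, Taldo1, Tkt and Me1, not all of which make NADPH themselves. All 4 were above 0 in both diet comparisons of the main fit, with medians of 0.34 under TNBS and 0.17 under the control enema. In the set-term fit 4 and 3 of 4 were above 0, with medians of 0.40 and 0.13. The control-enema median was 0.02 within array set 1 and 0.16 within array set 2. Tkt, transketolase of the pentose phosphate pathway, had 4599.3, 4389.6 and 3826.1 in curcumin-diet TNBS samples, against 3614.5, 3147.3 and 3371.8 in standard-diet TNBS samples. The control samples had 3986.3, 3559.7 and 4050.4 on curcumin, against 3578.0, 3823.6 and 3361.6 on the standard diet. The TNBS groups do not overlap (0.34 ± 0.11, adjusted p = 0.303) and the control groups do (0.11 ± 0.11). A second Tkt probe set on 430A had -0.05 under TNBS, and one on 430B had 0.02, or 0.45 without the 2 arrays that stand apart.

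Me1, the malic enzyme that makes NADPH in the cytosol, had 1769.7, 1545.1 and 790.4 in curcumin-diet TNBS samples, against 683.0, 1182.4 and 729.6 in standard-diet TNBS samples. The control samples had 1402.8, 1247.4 and 942.5 on curcumin, against 1126.7, 958.1 and 722.2 on the standard diet. Both pairs overlap, and replicate 3 of the curcumin-diet TNBS group is less than the highest standard-diet sample. The difference was 0.62 ± 0.30 under TNBS (adjusted p = 0.518) and 0.35 ± 0.30 under the control enema (adjusted p = 0.998), and a second probe set had 1.09 in each. The TNBS difference was 0.39 without curcumin-diet TNBS replicate 1 and 0.97 without curcumin-diet TNBS replicate 3, and within array set 1 the control-enema difference was -0.05.

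The glutathione transferases couple glutathione to electrophiles. Of the 10 tested, 8 were above 0 between the diets under TNBS (median 0.28), 5 of them at an unadjusted p under 0.05 in limma, and 9 under the control enema (median 0.12), 0 of them at that level. In the set-term fit 9 and 7 of 10 were above 0. Gstm1, a cytosolic mu class form, had 2492.0, 2714.8 and 2332.7 in curcumin-diet TNBS samples, against 1311.1, 1854.5 and 1739.8 in standard-diet TNBS samples. Under the control enema it had 2308.3, 2601.6 and 2396.9 on curcumin, against 2725.7, 1882.9 and 2578.3 on the standard diet. The standard-diet TNBS samples lie below the samples of the other 3 groups. The difference was 0.63 ± 0.16 between the diets under TNBS (adjusted p = 0.186, or adjusted p = 0.0590 in the set-term fit) and -0.54 ± 0.16 for TNBS on the standard diet (adjusted p = 0.265, or adjusted p = 0.0759 in the set-term fit). The interaction was 0.59 ± 0.23 (adjusted p = 0.420). All 4 Gstm1 probe sets gave 0.46 to 0.63 and -0.66 to -0.43 in these 2 comparisons, although mu class genes are close in sequence and such probe sets may share signal.

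Gstt1, of the theta class, had 449.3, 436.3 and 394.7 in curcumin-diet TNBS samples, against 176.4, 381.4 and 358.2 in standard-diet TNBS samples. In control-enema samples it had 339.5, 412.2 and 342.0 on curcumin, against 474.8, 454.0 and 471.6 on the standard diet. The groups do not overlap in either pair, with curcumin above under TNBS and below under the control enema. The differences were 0.53 ± 0.23 (adjusted p = 0.458) and -0.35 ± 0.23 (adjusted p = 0.998). For TNBS on the standard diet the difference was -0.66 ± 0.23 (adjusted p = 0.364). Without standard-diet TNBS replicate 1, the lowest sample, the diet difference under TNBS was 0.20 and the TNBS difference -0.32. The membrane-bound Mgst2 and Mgst3 and the omega class Gsto1, mentioned after their values were seen, differed by 0.33 ± 0.12, 0.37 ± 0.14 and 0.34 ± 0.14 between the diets under TNBS (adjusted p = 0.355, 0.369 and 0.413). Mgst2 was 3274.7, 3055.4 and 2837.9 in curcumin-diet TNBS samples, against 2436.0, 2766.9 and 2103.8 in standard-diet TNBS samples, with no overlap. Gsta3 and Gstm6, below the filter, ran from 64.5 to 172.9 and from 17.8 to 219.4 over all samples.

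Catalase and the glutathione peroxidases Gpx2 and Gpx3 differed between the diets under TNBS in opposite directions, and in the main fit by more than the other members. In the set-term fit Cbr1, at 0.88, was above Cat. Cat had 1479.0, 1977.9 and 1792.6 in curcumin-diet TNBS samples, against 963.9, 873.6 and 855.9 in standard-diet TNBS samples. With control solution it had 1589.2, 1217.8 and 1122.8 on curcumin, against 1106.3, 1453.1 and 1587.8 on the standard diet. The 3 standard-diet TNBS samples lie below the samples of the other 3 groups, and the control groups overlap over nearly their whole range. Under TNBS the signal averaged 1750 ± 252 on curcumin and 898 ± 57.9 on the standard diet (SD, n = 3 each). The log2 difference was 0.94 ± 0.17, a 1.92-fold higher level, with a 95% interval of 0.57 to 1.32 and adjusted p = 0.107 in the main limma fit. In the set-term fit it was 0.83 ± 0.11 with adjusted p = 0.0118, so that Cat passed. Within the 2 sets the Cat difference was 0.76 and 0.95, each with a single array on 1 side.

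The call of Cat in the set-term fit held in 8 of 12 runs with 1 sample left out. It was lost without standard-diet TNBS replicate 1 (0.72, adjusted p = 0.156), standard-diet TNBS replicate 3 (0.85, adjusted p = 0.0564), curcumin-diet TNBS replicate 1 (0.83, adjusted p = 0.113) or curcumin-diet TNBS replicate 2 (0.79, adjusted p = 0.0759). In the main fit Cat passed in 1 of 12 such runs, without curcumin-diet control replicate 3 (adjusted p = 0.0479). A second Cat probe set had 0.58 ± 0.33 (adjusted p = 0.590), and 0.36 ± 0.21 in the set-term fit (adjusted p = 0.432). For TNBS on the standard diet Cat differed by -0.60 ± 0.17 (adjusted p = 0.237, or adjusted p = 0.0734 in the set-term fit), and its interaction was 1.02 ± 0.24 (adjusted p = 0.239, or adjusted p = 0.113 in the set-term fit). The standard-diet TNBS samples that were low for Cat also had the highest macrophage and neutrophil marker sums, given above. Adipocyte markers summed there to 2807, 6828 and 5221 in replicates 1 to 3. These sums were below the standard-diet controls but overlapped both curcumin-diet groups. The 3 adipocyte genes had a median of 0.60 between the diets under TNBS and -0.60 for TNBS on the standard diet, and 0 of 3 passed. The epithelial median was 0.06 and 0.01 in these comparisons. The part of these cells in the Cat difference was not tested.

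Gpx3, a secreted peroxidase, and Gpx2, the peroxidase of gut epithelium, were high where Cat was low. Gpx3 had 1286.5, 1178.8 and 1207.8 in curcumin-diet TNBS samples, against 2222.5, 2126.5 and 2025.5 in standard-diet TNBS samples. After the control enema it had 1097.2, 1410.7 and 2082.7 on curcumin, against 1283.7, 976.3 and 1339.4 on the standard diet. The TNBS groups are far apart and curcumin-diet control replicate 3 reaches the level of the standard-diet TNBS samples. The difference was -0.79 ± 0.20 between the diets under TNBS (adjusted p = 0.181, or adjusted p = 0.0998 in the set-term fit) and 0.83 ± 0.20 for TNBS on the standard diet (adjusted p = 0.152, or adjusted p = 0.0885 in the set-term fit). Without curcumin-diet control replicate 3 Gpx3 passed in the TNBS comparison on the standard diet (adjusted p = 0.0358) and, at the edge of the threshold, between the diets under TNBS. The marker sums of macrophages and neutrophils were high in the same standard-diet TNBS samples, and their part in the difference was not tested.

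Gpx2, mentioned after its values were seen, had 1714.1, 1973.4 and 1619.3 in curcumin-diet TNBS samples, against 4337.4, 2279.0 and 2882.3 in standard-diet TNBS samples. Under the control enema it had 1822.2, 1941.3 and 2583.2 on curcumin, against 1751.9, 1921.1 and 1707.5 on the standard diet. The standard-diet TNBS samples lie above the other TNBS group and above their own controls, with replicate 1 the highest. The difference was -0.79 ± 0.21 between the diets under TNBS (adjusted p = 0.186, or adjusted p = 0.0876 in the set-term fit) and 0.76 ± 0.21 for TNBS on the standard diet (adjusted p = 0.196, or adjusted p = 0.0967 in the set-term fit). The superoxide dismutases Sod1 and Sod2 and the peroxidases Gpx1 and Gpx4 differed by -0.10 to 0.05 between the diets under TNBS, and their groups overlapped.

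**Figure D4:**
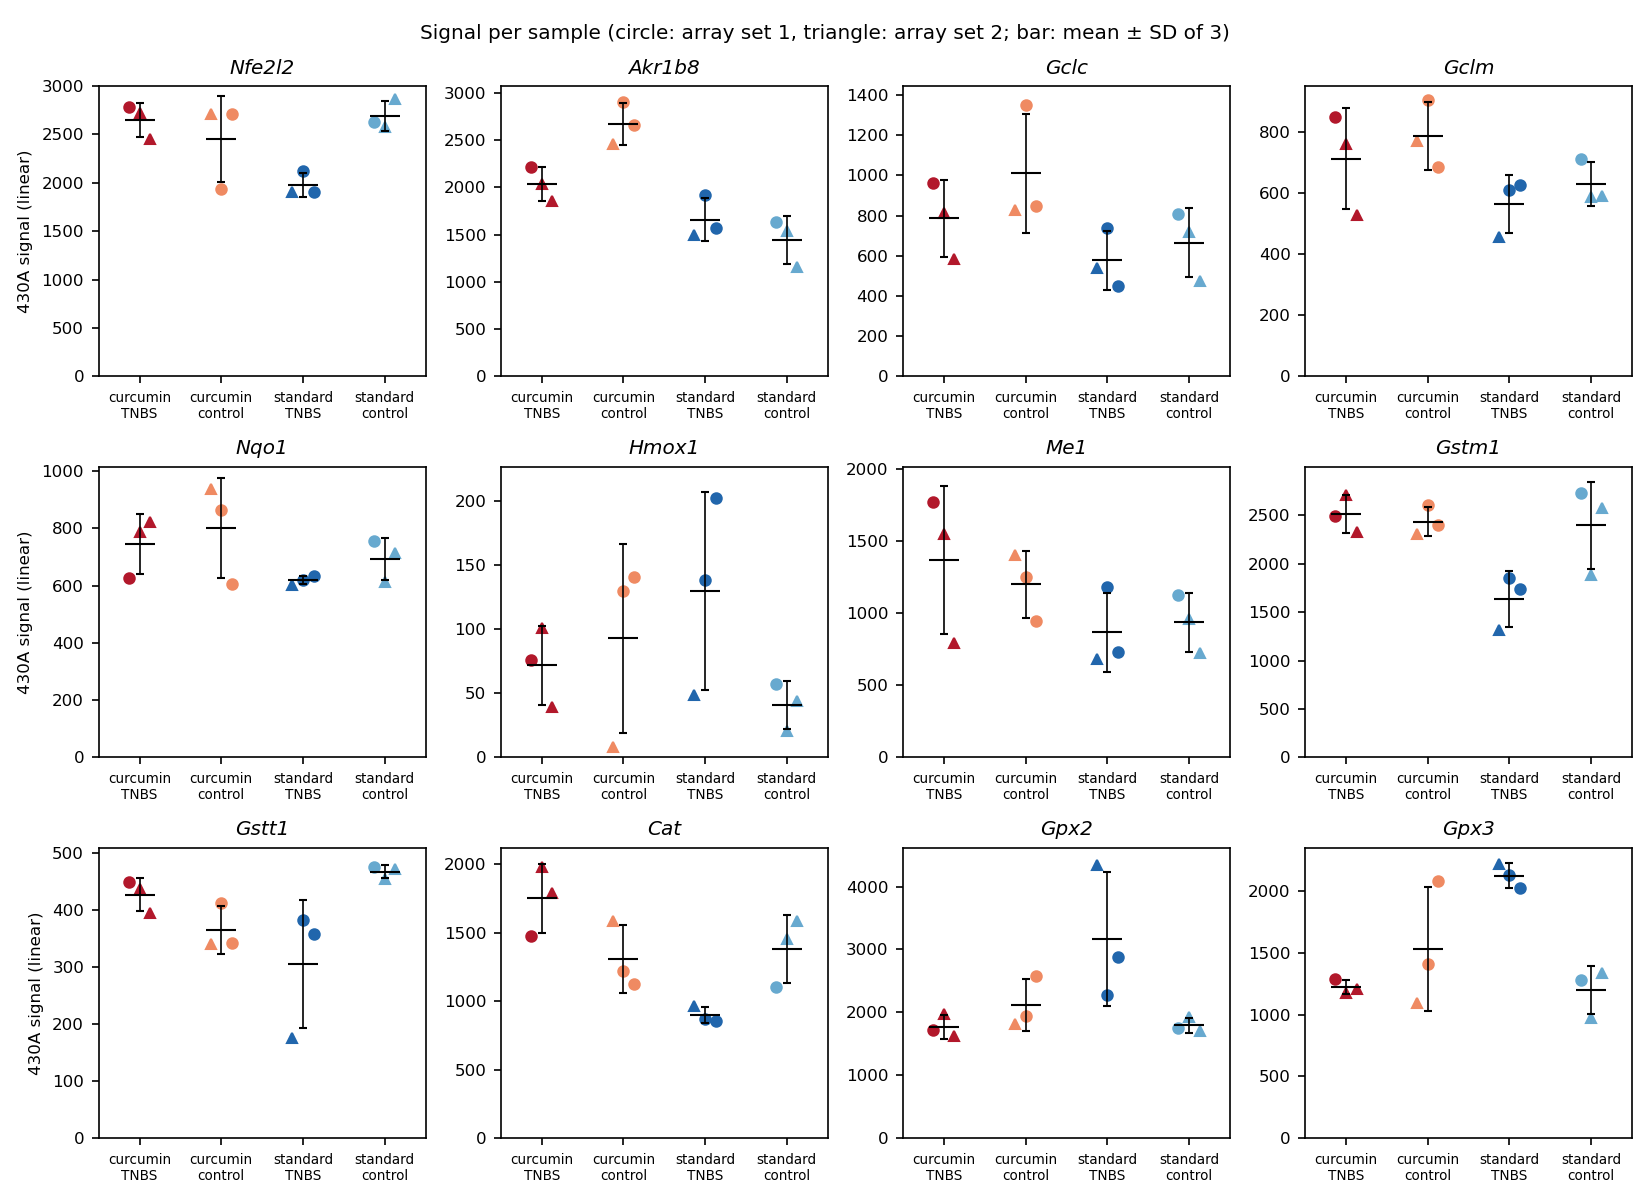
Linear 430A signal of 12 members in each of the 4 groups, with a circle for array set 1, a triangle for array set 2 and a bar for the mean ± SD of 3 samples. The standard-diet TNBS samples are the lowest of Cat and the highest of Gpx3 among TNBS samples, and the curcumin-diet control samples of Akr1b8, from 2456.0 to 2899.5, are above the standard-diet ones.

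Further genes of the pathway were taken from a list of 50 partners of Nrf2, other transferases and other redox enzymes, of which 37 were tested on 430A. In both fits and each diet and enema comparison 0 of 37 passed. The list medians between the diets under TNBS were 0.12 for 6 partners and regulators, 0.00 for 7 other transferases and 0.00 for 24 other redox enzymes, against 0.23 for the 38 members. Of the 24 other redox enzymes, 12 were above 0 between the diets under TNBS. Abcc3 and Txnip are named from among them after their values were seen. The efflux pump gene Abcc3 had 0.62 between the diets under TNBS (adjusted p = 0.330), or 0.73 in the set-term fit (adjusted p = 0.0995). Txnip, the inhibitor of thioredoxin, had -0.45 for TNBS on the standard diet (adjusted p = 0.206), or -0.50 in the set-term fit (adjusted p = 0.0581). Of the Nrf2 partners, the small Maf gene Mafg differed by -0.04 and 0.41 between the diets under TNBS and the control enema, and the autophagy receptor gene Sqstm1 by 0.24 and 0.34. These were the only 2 of the 6 partners above 0 under the control enema, where the list median was -0.05. In the set-term fit 4 of the 6 were above 0 there, with a median of 0.05.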

How the data were processed

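The authors made the deposited signals, linear intensity values, in GCOS, per the submitters' processing notes. No GCOS version was found there. Every array's 2% trimmed mean is alike, and the values were used as deposited. Probe sets were named with the GEO platform annotation, with symbols updated through RefSeq, and those with several symbols were not used. A gene is its tested probe set with the highest mean log2 signal, on 430A where one was tested. Probe sets above the 40th percentile of mean log2(signal + 16) were kept (13575 on 430A, 13506 on 430B). Each array type was fitted in limma 3.58.1 (R 4.3.3) with lmFit and eBayes with an intensity trend, 4 group means, 12 arrays and 8 residual degrees of freedom. P-values are two-sided and Benjamini-Hochberg adjusted over all probe sets of an array type, with 0.05 as the threshold. The script was tested on simulated data with the means and residual spread of these arrays. On 430A, 57 of 100 probe sets changed by 1 on the log2 scale passed, and 98 of 100 changed by 2. There were 8 false calls among 13575 probe sets. The simulation drew independent noise with no array sets and changed many probe sets together, which eases the adjustment. In the real comparison of TNBS on the standard diet, 2 probe sets passed on both array types together. The simulated rates may therefore not hold for the members. Smaller changes were not simulated, so a member that did not pass may still differ.

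The members, their classes and the other lists were chosen with earlier results of these data known. Given with each sample's value are members past the threshold in the fit with or without the array set, per class the 2 with the smallest p in a single-factor comparison, and Nfe2l2, Keap1, Nqo1, Hmox1, Gclc, Gclm, Txnrd1, Gstm1 and Akr1b8. The alternatives used a pseudocount of 1 or 64, a 60th percentile filter or none, quantile normalization, median centring, eBayes without a trend, array weights, the array set in the model, 430B without 2 arrays, only the groups compared, and each sample left out. Promoters come from RefSeq tables of GRCm38.p6. Protein identity was planned but no protein sequences were used here.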

Additional observations from a re-analysis of the deposited data

Results flagged for a closer look

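Gstt1, a theta class glutathione transferase, had opposite diet differences with the 2 enemas, with no overlap between the groups in either. Its interaction was 0.88 ± 0.33 on the log2 scale (unadjusted p = 0.0194, adjusted p = 0.403 in limma), or 1.09 ± 0.29 once the array set is in the model (adjusted p = 0.152). The difference between the enemas was thus tested and did not pass. With 1 sample left out the interaction ran from 0.55 to 1.07, the lowest without standard-diet TNBS replicate 1.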

How the results depend on the processing

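Of 1121 values of single genes under the alternatives, 1094 kept their direction and side of the threshold, 27 newly passed and 0 reversed. Some of these values could not reverse. Dropping the 2 arrays of 430B repeats the main value, and the filter and trend settings leave the log2 difference as it is. So does leaving out a sample of a group not compared. The count is therefore no measure of robustness. The number of members past the threshold, 0 in each main fit, was 2 for TNBS on the standard diet, 9 for curcumin under TNBS and 4 for the interaction with array weights. Curcumin under TNBS had 1 with the array set in the model (Cat) and 1 with only the groups compared (Gpx3). Leaving out 1 sample gave 0 to 1 for TNBS on the standard diet and 0 to 2 for curcumin under TNBS, the highest of both without curcumin-diet control replicate 3. With the array set as well it gave 0 to 5, an alternative chosen after seeing the data. The causes were not tested. Probe sets past the threshold on both array types together numbered 218 for curcumin under TNBS in the main fit. They numbered 7 to 4766 under the alternatives other than leaving out 1 sample. For TNBS on the standard diet the numbers were 2 and 2 to 224, and for TNBS on curcumin 55 and 1 to 2971. These counts include 430B, where the 2 arrays that stand apart are both curcumin-diet TNBS samples. On 430A, 3 of 8348 genes passed for curcumin under TNBS in the main fit.

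Class medians moved by more than their spread in 3 of 952 values, each with 1 sample left out: they ran from -0.2593 to 0.0363 for the carbonyl class for TNBS on the standard diet, from -0.0315 to 0.0894 for the transferases for TNBS on curcumin, and from 0.1044 to 0.2907 for the 38 members for curcumin under TNBS. The spread is the pooled SD between replicates of a class's median per sample. A median that changed sign within that spread was counted as unmoved. Some of the 952 values, such as those without the 2 arrays of 430B, could not move. For curcumin under TNBS the thioredoxin median ran from -0.0913 to 0.0564 under the alternatives. For TNBS on curcumin the NADPH median ran from -0.0826 to 0.2737 with 1 sample left out. No paired analysis was possible because the groups compared share no sample numbers. With 3 arrays a group and no detection calls used, small differences in dim genes such as Hmox1 could not be resolved.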
